A study of Mus musculus with 6 samples.

Results

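The miR-200 family was read by 5 of the 750 miRNA assays of this screen, the mouse assays named mmu-miR-200a, mmu-miR-200b, mmu-miR-200c, mmu-miR-141 and mmu-miR-429. The 5 assays were taken by name and not by a rule on measured values, though earlier results of these data were known. Assays of the opposite strands, marked with # in the assay name, and human-named assays of the same miRNAs are described apart.

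Monocytes of DBA/1 mice were profiled in this screen as a pair of subsets told apart by the surface marker Ly6C. Ly6Chigh cells, called classical, enter inflamed tissue, and Ly6Clow cells, called non-classical, crawl along the vessel wall. Each of 3 mice gave 1 Ly6Chigh and 1 Ly6Clow sample of freshly isolated blood monocytes, so that 6 samples were available, 3 per subset. The genotype, age and sex of the mice and how the subsets were isolated are not given in the sources used here. The TaqMan low-density array is a pair of multi-well cards in which each well amplifies 1 miRNA by quantitative PCR and returns a threshold cycle (Ct), where a Ct lower by 1 cycle stands for 1 log2 unit more template. All 5 family assays lie on the first card, called card A here, the one whose primer pool the labels name, and wells without a signal are listed at a Ct of 40.

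A Ct under 35 was counted as a signal, and by this measure the samples gave a signal for 146 to 294 of the 750 miRNA assays. The U6 small nuclear RNA, to which the authors normalized each card, had a Ct of 19.80 to 24.66 on card A, with the latest value in the Ly6Chigh sample of mouse 2. Card A of the Ly6Chigh sample of mouse 1 stood apart from the rest. Over the 127 tested card A assays, Spearman's rho between its Ct values and those of each other sample was 0.10 to 0.15, against 0.73 to 0.94 between any pair of the other samples (assays are not independent replicates). Of the 86 card A assays with a signal in the other 5 samples, 46 gave none in this one, among them miR-223, miR-142-3p and miR-142-5p, which are characteristic of myeloid and other blood cells. Conversely, 45 assays gave a signal in this sample alone. miR-146a, also in the myeloid list used below, gave a signal in all 6 samples, at a Ct of 26.98 in this one. miR-223, miR-142-3p and miR-142-5p thus matched the labelled cell type in 5 of the 6 samples. The card A values of the Ly6Chigh sample of mouse 1 are shown apart for each member.

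MicroRNAs of the miR-200 family are abundant in epithelial cells and keep them in the epithelial state. Their best known targets are the mRNAs of the transcriptional repressors ZEB1 and ZEB2, which shut down E-cadherin during epithelial-mesenchymal transition. A miRNA recognizes its targets mainly through its seed, bases 2 to 8 from the 5′ end, so that family members with the same seed are thought to share targets.

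The sequences below show how the 5 members divide into seed groups. They are the 3p mature strands, the usual main strand of this family, as listed by RefSeq for GRCm38.p6, written 5′ to 3′ with the seed in capitals. All 5 members were matched by name, but the assay names give no arm, and the bases that each assay amplifies are not given in the sources used here.
mmu-miR-200b-3p: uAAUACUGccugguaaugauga
mmu-miR-200c-3p: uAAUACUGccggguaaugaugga
mmu-miR-429-3p: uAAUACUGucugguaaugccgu
mmu-miR-200a-3p: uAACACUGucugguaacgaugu
mmu-miR-141-3p: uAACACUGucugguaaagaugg

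Thus 3 members carry the seed AAUACUG (miR-200b, miR-200c and miR-429) and 2 carry AACACUG (miR-200a and miR-141). With positions counted from 1 at the 5′ end, the seeds of miR-200b and miR-141 differ by U4C alone. Over 22 compared bases, miR-200b and miR-200c were identical at 20 and differed by U11G and A22G, and miR-200a and miR-141 were likewise identical at 20 and differed by C17A and U22G. The other pairs shared 17 or 18 of 22 bases.

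The seed groups do not follow the genes. In GRCm38.p6, the genes Mir429, Mir200a and Mir200b lie within 1846 bases of the minus strand of chromosome 4, at chr4:156053905-156055750, inside the span of the annotated long non-coding RNA gene Gm13648. Mir141 and Mir200c lie within 477 bases of the minus strand of chromosome 6, at chr6:124717914-124718390, where no other annotated gene overlaps them. Each cluster therefore encodes members of both seed groups. The deposited tables themselves name no genome build.

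Signals from the miR-200 family were present in the monocyte samples, but not from all of its members. Over the 5 assays and 6 samples, 16 of 30 reactions (53.3%) gave a signal, against 32.8% of the 2250 miRNA reactions of card A. Without the Ly6Chigh sample of mouse 1 it was 14 of 25 reactions (56.0%), against 33.5% on card A. miR-200c gave a signal in 6 of 6 samples, miR-200b in 5, miR-141 in 4, miR-200a in 1 and miR-429 in 0. By sample, the number of members with a signal was 2, 1 and 3 in the Ly6Chigh samples of mice 1, 2 and 3 and 4, 3 and 3 in the Ly6Clow samples. The Ly6Clow samples thus had 10 of 15 reactions with a signal (66.7%, against 34.5% on card A) and the Ly6Chigh samples 6 of 15 (40%, against 31.1%), a difference that lay in mice 1 and 2, as mouse 3 gave a signal for the same 3 members in both subsets. These counts include the deviating card. In mice 2 and 3 alone, the Ly6Clow samples had 6 of 10 (60%, against 34.8%) and the Ly6Chigh samples 4 of 10 (40%, against 32.1%). Since these are bulk samples, fewer cells of a type and less RNA per cell cannot be told apart.

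**Figure D1:**
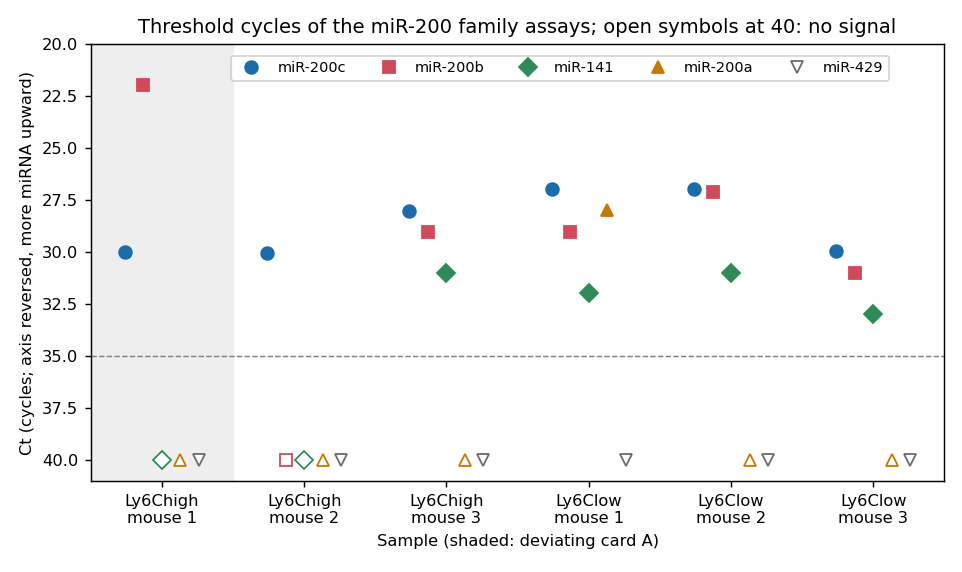
Threshold cycles (Ct, in cycles, axis reversed so that more miRNA is higher) of the 5 family assays in the 6 samples, with open symbols at 40 for wells without a signal, the dashed line at 35 for the limit of a signal, and shading for the sample whose card A deviates. miR-200c lies between 26.98 and 30.03 in all 6 samples, whereas miR-429 is at 40 throughout and miR-200a has its only signal in the Ly6Clow sample of mouse 1.

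miR-200c was the member with the steadiest signal. Its Ct was 30.03 and 28.01 in the Ly6Chigh samples of mice 2 and 3 and 26.98, 26.99 and 29.96 in the Ly6Clow samples of mice 1, 2 and 3. In the deviating Ly6Chigh sample of mouse 1 the Ct was 29.97. Expression relative to U6 (−ΔCt, a log2 scale on which higher means more miRNA) was −7.30, −5.37 and −7.24 in the Ly6Chigh samples and −7.18, −6.22 and −8.04 in the Ly6Clow samples. The 2 samples of mouse 2 were the highest of their subsets, and the subsets overlapped. The subset means were −6.64 ± 1.10 (SD, n = 3) and −7.15 ± 0.91 (SD, n = 3). They were 0.51 apart on the log2 scale (standard error 1.49, adjusted p = 0.985 in limma, and p = 0.7 in a 2-sided exact permutation test). This difference was smaller than the SD of either subset. Within mice 2 and 3, miR-200c was higher in the Ly6Chigh sample by 0.85 and 0.80, and within mouse 1 the difference was −0.13. The sign rests on the normalization, because with unnormalized Ct values the difference was −1.36 and after quantile normalization −0.66. The median difference of all tested assays shifted with it, from −0.45 relative to U6 to −2.32 without normalization. miR-200c lay 0.96 above that median in both. This distance could hardly change, as U6 is 1 constant for all assays of a sample and card. After quantile normalization miR-200c lay 0.09 above the median, and with undetected wells left out its distance was −0.42. Without the Ly6Chigh sample of mouse 2 the difference between the subsets was also negative, at −0.13.

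miR-200b, which has the same seed as miR-200c but lies in the other cluster, varied far more. Its Ct was 29.03 in the Ly6Chigh sample of mouse 3 and 29.01, 27.09 and 31.00 in the Ly6Clow samples, while the Ly6Chigh sample of mouse 2 gave no signal. Shown apart, the Ly6Chigh sample of mouse 1 had a Ct of 21.98, the earliest of any family reaction and the 4th earliest of the 109 card A signals of that sample. Relative to U6 this is 0.69, against −9.20 to −6.32 in the 4 other samples with a signal. The highest and the lowest values thus both came from Ly6Chigh samples. The mean was −7.64 ± 8.03 (SD, n = 3) in Ly6Chigh and −8.20 ± 1.63 (SD, n = 3) in Ly6Clow monocytes, with the undetected well at its listed value, which gives a difference of 0.56 (standard error 4.10, limma adjusted p = 0.985; 2-sided exact permutation test, p = 0.8). Leaving out a single sample decided the sign: the difference was −3.60 without the Ly6Chigh sample of mouse 1 and 4.42 without that of mouse 2. It was also negative without normalization (−1.30) and after quantile normalization (−0.16). Only mouse 3 gave a signal in both subsets on cards that did not deviate, and there miR-200b was higher in the Ly6Chigh sample by 0.82.

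miR-141, the neighbour of miR-200c, gave late signals. The Ct was 30.98 in the Ly6Chigh sample of mouse 3 and 31.97, 31.01 and 32.99 in the Ly6Clow samples, and no signal was listed in the Ly6Chigh samples of mice 1 and 2. Expression relative to U6 was −10.21 in the Ly6Chigh sample of mouse 3 and −12.17, −10.25 and −11.07 in the Ly6Clow samples. The Ly6Chigh sample of mouse 3 therefore lay just above the Ly6Clow samples, and the other Ly6Chigh samples below them only by their missing signal. With these wells at their listed values, the means were −14.30 ± 3.68 (SD, n = 3) and −11.16 ± 0.96 (SD, n = 3), a difference of −3.14 (standard error 2.24, limma adjusted p = 0.985; 2-sided exact permutation test, p = 0.4). The sign is that of the missing signals, since the difference became 0.95 with undetected wells left out and 0.20 with Ct values above 35 set to 35. It was −1.62 without the Ly6Chigh sample of mouse 1 and −5.18 without that of mouse 3.

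How far a missing signal bounds the level can be read from U6. In the Ly6Chigh sample of mouse 2, U6 had a Ct of 24.66, against 20.76 in the Ly6Clow sample of the same mouse. At the level of that Ly6Clow sample, miR-141 would have had a Ct of 34.90 there, next to the limit of 35, and miR-200b a Ct of 30.98. Both wells were listed at 40, which is 5.10 cycles later for miR-141 and 9.02 cycles later for miR-200b. Among the 96 card A assays with a signal in the 4 samples other than the Ly6Chigh samples of mice 1 and 2, 10 (10.4%) gave none in the Ly6Chigh sample of mouse 2, and miR-200b and miR-141 are 2 of these 10.

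The remaining members were nearly silent. miR-200a, which carries the miR-141 seed, had a signal only in Ly6Clow monocytes of mouse 1. Its Ct of 27.97 there is −8.17 relative to U6, and it was listed at 40 in the other 5 samples. In that sample it came 1.04 cycles before miR-200b, its cluster neighbour, while in the Ly6Clow samples of mice 2 and 3 and in the Ly6Chigh sample of mouse 3 miR-200b had a signal and miR-200a had none. A signal in a single sample was seen for 69 of the 375 card A assays (18.4%). For 6 assays that sample was the Ly6Clow sample of mouse 1, and miR-200a had the lowest Ct of the 6. miR-429, the third gene product of this cluster, was listed at 40 in all 6 samples. It was 1 of 153 of the 375 card A assays (40.8%) without a Ct under 35 in any sample. Neither member passed the filter for testing, which asked for a Ct under 35 in at least 3 samples.

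**Figure D2:**
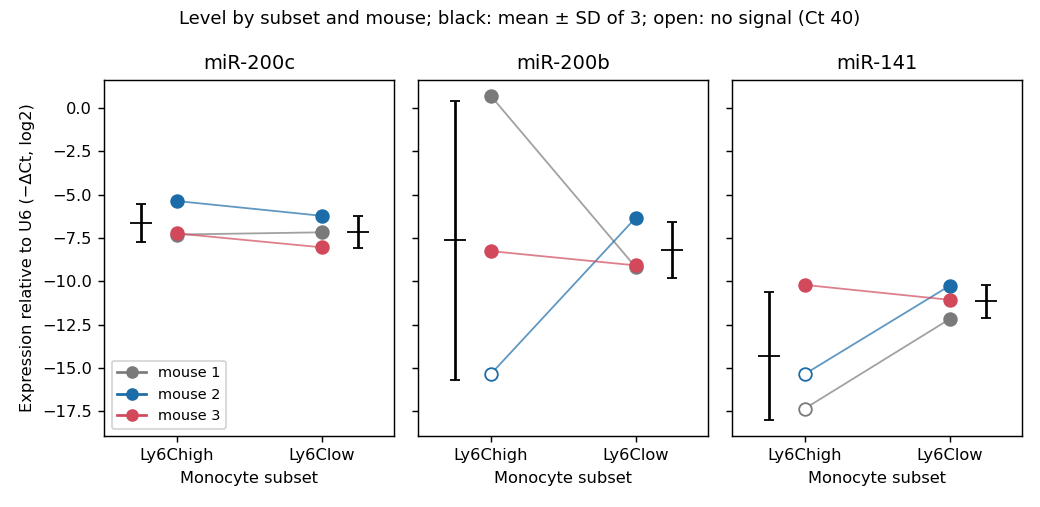
Expression relative to U6 (−ΔCt, log2) of the 3 tested members in Ly6Chigh and Ly6Clow monocytes, with a line for each mouse, open circles for wells without a signal at the value that a Ct of 40 gives, and black marks for the mean ± SD of 3 samples. miR-200c stays between −8.04 and −5.37, while the Ly6Chigh values of miR-200b run from −15.34 to 0.69.

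In the 4 samples in which miR-200c, miR-200b and miR-141 all gave a signal on cards that did not deviate, their order was the same. miR-141 came 3.75 ± 0.96 cycles (SD, n = 4 samples, 2 of them from the same mouse) after miR-200c, with a range of 2.97 to 4.99, although both genes lie in the same cluster. miR-200b came 1.05 ± 0.79 cycles (SD, n = 4) after miR-200c, and in the Ly6Clow sample of mouse 2 by only 0.10, so these neighbours in the order differed by little more than their spread. miR-141 followed miR-200b by 2.71 ± 0.94 cycles (SD, n = 4). These cycle differences between assays hold the efficiency of each assay as well as the amount of miRNA. All 16 family signals lay within 0.09 cycles of a whole number, so that differences are read in steps of about 1 cycle.

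Among all signals of card A, the family was in the middle to lower part. In the 5 samples whose card A did not deviate, 40.4% to 56.3% of the card A signals had a lower Ct than miR-200c, so that it was close to the median of Ct 27.94 to 29.97. For miR-200b this share was 43.2% to 73.9% in 4 samples, and for miR-141 it was 75.2% to 86.1% in 4 samples. miR-200a stood at 47.2% in its only sample. In the deviating Ly6Chigh sample of mouse 1, the shares were 52.3% for miR-200c and 2.75% for miR-200b.

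**Figure D3:**
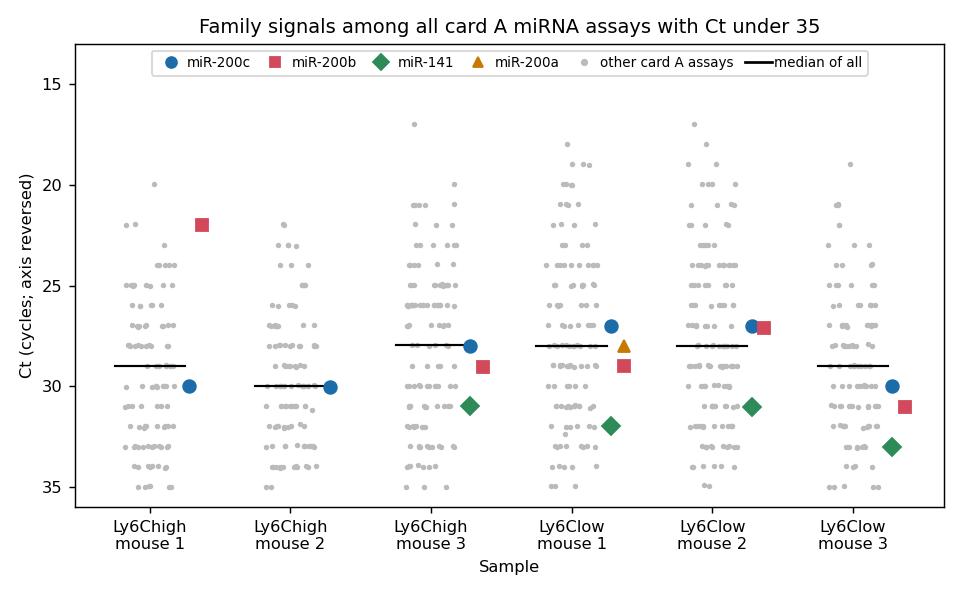
Ct values (in cycles, axis reversed) of all card A miRNA assays with a signal in each sample, as grey points with the median of all as a black line, and the family members as coloured symbols beside them. miR-200c lies within about 1 cycle of the median in every sample, miR-141 lies about 3 to 4 cycles below it on this axis where it has a signal, and miR-200b lies far above it in the Ly6Chigh sample of mouse 1 alone.

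None of the 3 tested members differed between the subsets beyond the spread of the samples. Of the 201 miRNA assays tested with limma, 0% passed an adjusted p of 0.05 (0 of 201), and 0 of the 3 tested members did. At an unadjusted p under 0.05, 2 of the 201 assays passed and 0 of the 3 members. The Ly6Chigh values lay above all Ly6Clow values for 2.99% of the tested assays and below them for 2.49%, and the subsets overlapped for all 3 members. The median difference of the 3 members was 0.51, against −0.45 over all tested assays. The exact permutation test did not use the pairing by mouse, and with 3 samples against 3 it cannot give a p below 0.1.

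The assays with the pattern most like that of each member were sought by the root mean square difference in −ΔCt over the 6 samples, after each assay was centred on its own mean, among the 126 other tested card A assays. For miR-200c these were let-7e (0.37), miR-19a (0.38) and miR-331-3p (0.46), where the median of all candidates was 3.17. For miR-200b the nearest was miR-185 (0.80), followed by miR-184 (2.74) and miR-338-3p (2.80), against a median of 6.99. miR-185 shares with miR-200b an early Ct, 23.98, in the Ly6Chigh sample of mouse 1 and a missing signal in that of mouse 2. For miR-141 it was miR-32 (0.81), with no signal in the same pair of Ly6Chigh samples, then miR-24 (1.92) and miR-181c (1.94), against a median of 3.07.

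Without the Ly6Chigh sample of mouse 1, a choice made after the values were seen, the assays nearest to miR-200c were miR-20b, miR-19a and miR-19b, at 0.02, 0.02 and 0.03. Only these 3 of the 126 candidates were within 0.1 over the 5 samples, which means that they took the same whole-cycle steps as miR-200c from sample to sample. The median of all candidates was 1.06 here, and 56 of the 126 were within 1 of miR-200c. Over the same 5 samples, miR-141 was the 2nd nearest assay to miR-200b, at 1.30, and both lacked a signal in the Ly6Chigh sample of mouse 2. miR-200c and miR-141, which share a cluster, were 2.60 apart, and miR-141 ranked 94th of 126 for miR-200c. These values describe 6 or 5 samples in which Ct moves in steps of about 1 cycle.

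The second card, card B, carried 4 assays for opposite strands of the family, and these were nearly without signal, with 2 of 24 reactions under a Ct of 35 against 20.9% of the 2250 miRNA reactions of card B. The mouse sequences of the opposite strands with a signal, which RefSeq lists as the 5p strands, are shown for comparison with bases 2 to 8 in capitals.
mmu-miR-141-5p: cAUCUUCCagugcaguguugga
mmu-miR-200b-5p: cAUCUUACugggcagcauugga
The assay mmu-miR-141# gave a Ct of 30.00 in the Ly6Clow sample of mouse 2, and hsa-miR-200b# a Ct of 33.97 in the Ly6Chigh sample of mouse 3. The latter assay also had a later value of 35.97 in the Ly6Clow sample of that mouse. Assays hsa-miR-200a# and hsa-miR-200c# were listed at 40 in all 6 samples.

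Card B also held human-named assays for miR-200b and miR-200c, which were singled out after their values were seen. They did not follow the mouse-named assays. The human-named miR-200c assay had no Ct under 35 in any sample and a value of 35.98 in the Ly6Clow sample of mouse 3, whereas the mouse-named assay gave a signal in all 6. The human-named miR-200b assay gave a Ct of 34.98, 23.97 and 40 in the Ly6Chigh samples of mice 1, 2 and 3 and of 32.36, 19.96 and 40 in the Ly6Clow samples. It was thus early in both samples of mouse 2 and without a signal in both samples of mouse 3, while the mouse-named assay had signals in both samples of mouse 3 and none in the Ly6Chigh sample of mouse 2. Relative to U6 of its card, the human-named assay was at 0.89 and 0.06 in the Ly6Chigh and Ly6Clow samples of mouse 2 and at −11.23 and −10.97 in those of mouse 1, so that the mice differed by more than 10 log2 units and the subsets of each of these mice by under 1.

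The same order of the mice in both subsets was seen in 1 control assay of card B, but not in the others of that card. It was also seen in the control snoRNA202 of card A. On card B, the small nucleolar RNA snoRNA135 had a Ct of 35.95, 23.96 and 40 in the Ly6Chigh samples, of 32.36 and 40 in the Ly6Clow samples of mice 1 and 3, and its earliest Ct in the Ly6Clow sample of mouse 2. On card A, snoRNA135 was at 25.96 and 21.98 in the samples of mouse 2 and had no Ct under 35 elsewhere. The same held for U87 (28.97 and 24.99) and Y1 (29.95 and 27.99) on card A. There snoRNA202 was at 31.92, 22.97 and 40 in the Ly6Chigh samples of mice 1, 2 and 3. In the Ly6Clow samples it was at 30.96, 18.99 and 40. The control Y1 on card B had a Ct of 30.01, 40 and 40 in the Ly6Chigh samples of mice 1, 2 and 3. In the Ly6Clow samples Y1 was at 31.74, 28.97 and 40. The controls snoRNA202 and U87 on card B were at 40 except in the Ly6Clow sample of mouse 2, at 33.98 and 31.99. Among the 73 other tested card B assays, those nearest to the human-named miR-200b assay were mmu-miR-692 (0.34), rno-miR-513 (0.41) and mmu-miR-691 (0.87), against a median of 6.28. The negative control ath-miR159a, which reads a plant miRNA, was listed at 40 on card A of all 6 samples. On card B it had a late signal, at 33.97, in the Ly6Clow sample of mouse 2 alone. What the human-named assays amplified in these samples was not tested.

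**Figure D4:**
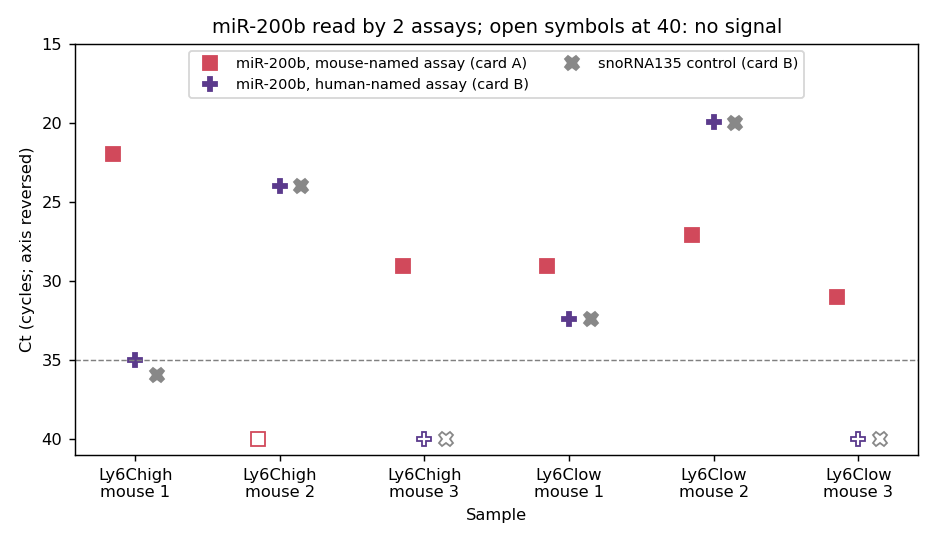
Ct values (in cycles, axis reversed) of the mouse-named and human-named miR-200b assays and of the snoRNA135 control of card B in the 6 samples, with open symbols at 40 for wells without a signal and the dashed line at 35 for the limit of a signal. The human-named assay lies within about 1 cycle of snoRNA135 in every sample, while the mouse-named assay takes another order.

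Other miRNAs enriched in epithelia gave a mixed picture beside the family. Of the 10 in the list, all on card A, 28 of 60 reactions (46.7%) gave a signal. miR-203, of stratified epithelia, and miR-192, of gut and kidney epithelia, had a signal in 6 of 6 samples, and miR-194, which shares its clusters with miR-192 and miR-215, in 5. In the 5 samples whose card A did not deviate, the Ct of miR-203 was 27.96 to 29.99, that of miR-192 27.97 to 30.96 and that of miR-194 28.97 to 32.97. miR-375, of endocrine and gut epithelia, had a signal in 4 samples at a Ct of 31.97 to 33.98, and miR-31 in 2, both from mouse 2, at 32.98 and 31.97. In contrast, miR-205, another miRNA of stratified epithelia, was listed at 40 in all 6 samples. miR-183, miR-96 and miR-182, which form a cluster of sensory epithelia, were at 31.95, 25.97 and 27.97 in the Ly6Chigh sample of mouse 1, where miR-215 also had its only signal, at 28.96. Elsewhere this cluster had 1 signal, miR-183 at 34.91 in the Ly6Clow sample of mouse 2. Of the 4 tested assays of the list, 0 passed an adjusted p of 0.05 in limma, and their median difference was 0.19.

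Myeloid miRNAs gave a signal more regularly. Without the deviating card, miR-223, miR-142-3p, miR-142-5p and miR-146a gave a signal in 20 of 20 reactions, with a Ct of 16.96 to 21.95 for miR-223, which is abundant in granulocytes and monocytes. miR-142-5p came later, at 25.98 to 29.97, which overlaps the 26.98 to 30.03 of miR-200c. The lymphocyte list (miR-150, miR-342-3p and miR-181a), whose members are known in monocytes too, gave 15 of 15 on the same cards. miR-451, abundant in red cells, and miR-126-3p, of endothelium and platelets, gave a signal in these 5 samples too, with a Ct of 30.94 to 32.98 and of 28.97 to 31.97. The other assays of these lists did not. miR-486 of the erythroid list was listed at 40 in all 6 samples. miR-126-5p of the endothelial list had a Ct under 35 only in the Ly6Clow sample of mouse 2, at 32.99. With all cards, a signal was seen in 5 of 12 reactions of the erythroid list and 6 of 12 of the endothelial list. It was 2 of 30 for the muscle list, 3 of 6 for miR-122 of liver, 11 of 24 for the neuron list and 13 of 60 (21.7%) for the embryonic stem cell list. Part of the embryonic stem cell list lies on card B, where 20.9% of all miRNA reactions gave a signal. The other lists lie on card A, where this share was 32.8%. With all cards, the family's own share, 53.3% of reactions, lay above those of the endothelial (50%), epithelial (46.7%) and neuron (45.8%) lists and below those of the myeloid (87.5%) and lymphocyte (94.4%) lists. At a Ct under 32 the shares were 50% for the family, 41.7% for the endothelial, 36.7% for the epithelial and 25% for the neuron list. This order depended on the limit and the cards. At any Ct under 40, the endothelial list (58.3%) lay above the family (53.3%). Without the deviating card and at a Ct under 35, the shares were 60% for the endothelial list, 56% for the family, 50% for the neuron and 44% for the epithelial list. The part of RNA from other cells in the family's signals was not tested.

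**Figure D5:**
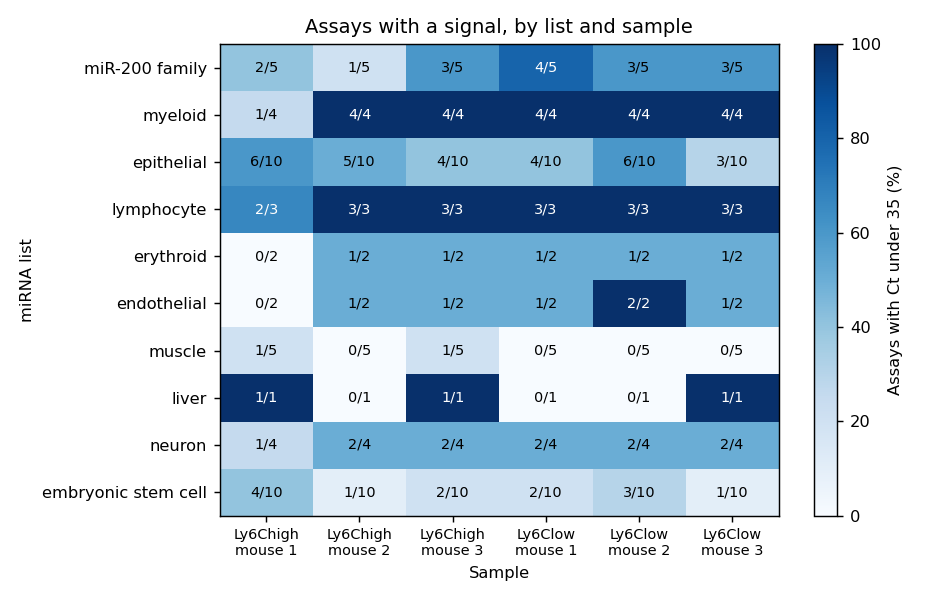
Number of assays with a Ct under 35 of all assays of each miRNA list, by sample, with the share in percent as shading. The myeloid list has a signal for 4 of 4 assays in 5 samples and for 1 of 4 in the Ly6Chigh sample of mouse 1, while the miR-200 family runs from 1 of 5 to 4 of 5.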

How the data were processed

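The authors reverse-transcribed and preamplified 10 ng of RNA per sample for TaqMan low-density arrays. The authors deposited Ct and ΔCt, which run on a log2 scale of opposite sign. ΔCt is Ct minus U6 of the same sample and card, which was checked to be 1 constant each. Another table of the authors holds ratios between subsets and was not used. The software and threshold behind Ct are not given in the sources used here, and the number of arrays limits the precision.

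Groups and mouse numbers came from the labels. −ΔCt was tested with limma 3.58.1 (lmFit, eBayes) in R 4.3.3, without a mouse block, over the 201 of 750 miRNA assays with Ct under 35 in at least 3 of 6 samples, with Benjamini-Hochberg adjustment. The 18 control wells were left out and undetected wells kept their values. The limma steps were tested on simulated data. The 2 samples of a mouse are paired by the labels, and their deviations from the subset means correlated at 0.32, 0.62 and 0.72. Python 3.11.15, pandas 2.3.3, scipy 1.17.1 and matplotlib 3.10.9 were used.

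The members, the marker lists and the rule for the nearest assays (3 per member with a signal in at least 3 samples) were chosen with earlier results of these data known. The lists were matched to mouse assays by exact name, with or without the arm, which found none for miR-144, miR-206 and miR-302. Assays with a further letter, such as mmu-miR-302d on card A, were not matched. Sequences are from RefSeq (GRCm38.p6).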

Additional observations from a re-analysis of the deposited data

How the results depend on the processing

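The number of assays past an adjusted p of 0.05 in limma was 0 in all 17 other fits, and so was the number of family members. At an unadjusted p under 0.05, the 17 fits gave 1 to 16 assays. The difference of miR-200b, 0.56 as reported, was −1.30 without normalization, −0.16 after quantile normalization, −3.60 with card A of the Ly6Chigh sample of mouse 1 missing and −4.10 when a block for the mouse was fitted to mice 2 and 3. With each sample left out in turn it ranged from −3.60 to 4.42. For miR-200c, 0.51 as reported, it was −1.36 without normalization, −0.66 after quantile normalization and −0.13 to 0.97 with samples left out. For miR-141, −3.14 as reported, it was 0.20 with Ct above 35 set to 35, 0.95 with undetected wells missing and −5.18 to −1.62 with samples left out. The median difference of all tested assays was −0.45 relative to U6, −2.32 without normalization, −0.78 with the global mean and −0.75 after quantile normalization. Relative to that median, miR-200b lay 1.01 above it both with U6 and without normalization, as U6 is 1 constant for all assays of a sample and card. The cause of the changes with the global mean and after quantile normalization was not tested. Over the 17 other fits, the adjusted p in limma was 0.738 or more for miR-200b, 0.443 or more for miR-200c and 0.486 or more for miR-141.

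With the mouse as a replicate block, the differences were 0.56, 0.51 and −3.14 as before, with standard errors of 4.07, 1.17 and 1.83 and 0 members past the threshold, and the block changed no call.

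Of 57 counts of signals at other limits or without the deviating card, 52 lay within 1.5 times the reported count. The others were 3 for the erythroid list, 0 for the muscle list, 1 for miR-122 and 6 for the neuron list at a Ct under 32, and 1 for the muscle list without the deviating card.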
